A study of Mus musculus with 22 samples.

Results

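Mammary tissue of 12 mice was compared here: 6 that ran on a wheel and 6 sedentary controls, all given liposomes that held buffer (PBS) only, out of 22 mice in the series. All 12 were female C57BL/6J mice, 7 to 8 weeks old. Wheel-running mice had an angled running wheel on a hub in the home cage for 2 weeks, while control mice had the hub without the wheel. Every mouse then received 100000 EO771 cells, a mammary cancer line of the same inbred strain that carried firefly luciferase, in the left mammary fat pad of gland 4. PBS liposomes were given by vein 24 hours before and again with the cells, and the wheel stayed in the cage until the gland was collected 24 hours after engraftment. The samples are therefore normal gland that had held cancer cells for a day, and not grown tumors. Clodronate-treated mice entered only the estimate of the spread. Genes were chosen without regard to activity, as those read above 1 CPM in at least 5 of the 12 mice, which kept 13745 of 52526 symbols. CPM gives the reads of a gene relative to all reads of its library, scaled so that libraries of unlike depth can be compared.

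The mouse mammary fat pad is mostly white adipose tissue, crossed by ducts with an inner luminal and an outer basal layer of epithelium. This gland also holds a lymph node, and it lies under the skin against the muscle of the body wall, so a dissected pad can carry any of these tissues. Adipocytes store triglyceride and secrete leptin and adiponectin, luminal cells carry the estrogen and progesterone receptors, and voluntary running is known to draw on adipose lipid stores.

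Libraries were read from the 3′ ends of transcripts and held 13314092 to 17947621 reads per mouse. Each library came from 1 mouse, so p-values below measure the spread between mice. Values under 1 CPM had been raised to 1, a floor that stands for at most 13 to 17 reads, and 73.7 to 76.0% of symbols per mouse lay at it. For library make-up, 6 measures were compared by an exact two-sided permutation test over all splits of the 12 mice into 6 and 6. The upper quartile of the genes tested was 29.0 ± 0.21 CPM with the wheel and 30.9 ± 1.26 CPM without it (SD, exact permutation p = 0.00866, adjusted over 6 measures 0.0325). The median gene was also lower with the wheel, at 11.2 ± 0.26 against 12.1 ± 0.60 CPM (SD, exact permutation p = 0.0108, adjusted 0.0325). Wheel-running mice lay between 28.8 and 29.3 CPM for the upper quartile, and 1 control mouse, replicate 5, lay among them at 29.0. Leaving out any one of wheel replicates 1, 3, 4, 5 and 6 moved both adjusted p-values past 0.05, to at most 0.0714. The share of the signal held by the 10 most abundant genes was 28.0% ± 0.90 with the wheel and 25.1% ± 2.54 without it (SD, exact permutation p = 0.0303, adjusted 0.0606). Without control replicate 5 that difference gave an adjusted permutation p of 0.00433. Most abundant of all was Gm42418, a locus known to collect reads of ribosomal RNA, at 53198 to 92901 CPM (median 63410) in control and 62347 to 98937 CPM (median 76547) in wheel-running mice. Reads per mouse, the share assigned to genes and the number of genes above the floor did not pass after adjustment (adjusted permutation p between 0.104 and 0.268), although without wheel replicate 2 the number of genes above the floor did, at 0.0390. A scaling that fixes the upper quartile in every mouse was therefore run beside the deposited values. Both are given for many of the lists whose count or side differed, but not for all. A list given once is on the deposited scaling and can differ on the other.

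**Figure D1:**
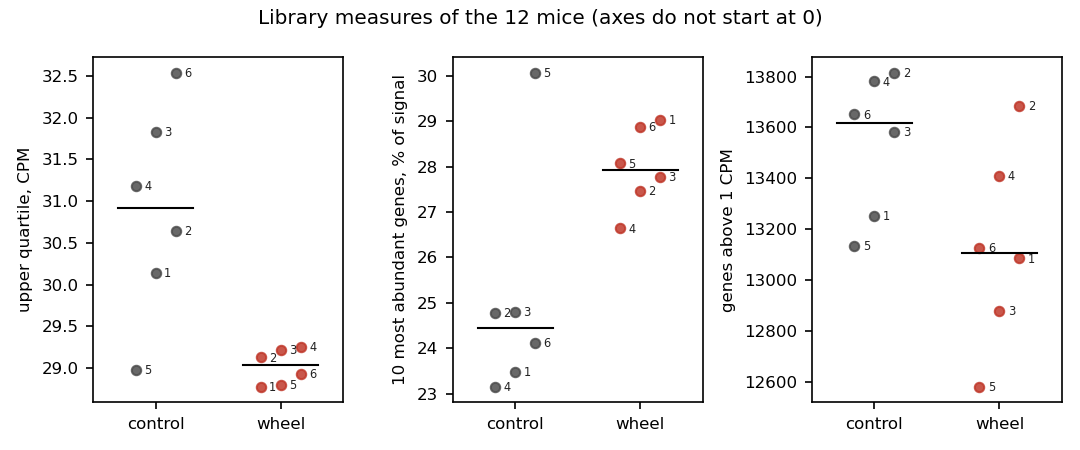
Library measures of the 12 mice, each point 1 mouse numbered by replicate and each line a group median; the axes show the upper quartile of the genes tested (CPM), the share of the signal in the 10 most abundant genes (%) and the number of genes above 1 CPM. The wheel-running mice sit between 28.8 and 29.3 CPM for the upper quartile, and control replicate 5 is the only control among them.

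The tissue that was taken differed between mice of the same group. The 12 adipocyte genes summed to 22697 to 36386 CPM (median 26161) in control and 23481 to 37078 CPM (median 28086) in wheel-running mice, so every sample was rich in fat. Adipoq, the gene of adiponectin, was read at 1052 to 2221 CPM (median 1525) in control and 1144 to 2656 CPM (median 1429) in wheel-running mice. Epithelium was present in all 12, with Krt8, a luminal keratin, at 8.38 to 39.2 CPM (median 30.04) in control and 23.2 to 51.8 CPM (median 26.5) in wheel-running mice. Lymph node genes stood out in 2 mice, control replicate 2 and wheel replicate 3. Over 16 genes that mark lymph nodes these mice summed to 765 and 1370 CPM, with 14 and 15 genes above the floor, against 16.4 to 26.0 CPM and 2 to 6 genes in the other 10. Glycam1, a mucin of the vessels through which lymphocytes enter lymph nodes, was at 436 and 943 CPM in those 2 mice and at 1.32 to 4.78 CPM in the rest. Cr2, a complement receptor of B cells and follicles, was at the floor in 10 of 12 mice. The part of lymph node tissue in the results below was not tested, and the main counts are given with and without both mice.

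A second source of spread was a group of epidermal genes, which led the axis along which the 12 mice differed most (27.5% of the variance of log2 values over the genes tested). These genes were picked after their values were seen. Krt10, a keratin of the upper epidermis, was read at 7.49 to 1076 CPM (median 508) in control and 9.16 to 2522 CPM (median 33.9) in wheel-running mice. Control replicates 2, 3 and 4 and wheel replicates 2 and 5 had 864 to 2522 CPM of Krt10, while control replicates 1 and 5 and wheel replicates 1, 3 and 4 had at most 15.2 CPM. Lor, which encodes loricrin of the cornified layer, was at 3.69 to 724 CPM (median 199) in control and 3.91 to 1423 CPM (median 18.5) in wheel-running mice, and was high in the same mice. Krt5, a keratin that basal cells of ducts and of epidermis share, was high in the same mice too, at 29.1 to 538 CPM (median 180.1) in control and 22.1 to 755 CPM (median 55.3) in wheel-running mice. At the other end of that axis Ly6c2, a monocyte gene, ranked first, at 1 to 59.8 CPM (median 7.16) in control and 1 to 66.9 CPM (median 2.83) in wheel-running mice. Irf8, Ccl5, Cd180 and Cd53, genes of immune cells, were also among the leading genes of that end. With them stood Rhox5, a homeobox gene of the reproductive tissues, and Dusp9, a phosphatase gene of the placenta. Rhox5 was at 16.1 to 68.8 CPM in control replicates 1, 2 and 6 and wheel replicates 3 and 4, at 3.22 CPM in wheel replicate 5, and at the floor in the other 6 mice. Dusp9 was at 3.91 to 33.2 CPM in those first 5 mice and no higher than 1.11 CPM in the rest. RNA of EO771 cells alone was not analysed here, and the source of these reads was not tested. In tissue samples of this kind, fewer cells of a type and less RNA per cell cannot be told apart.

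**Figure D2:**
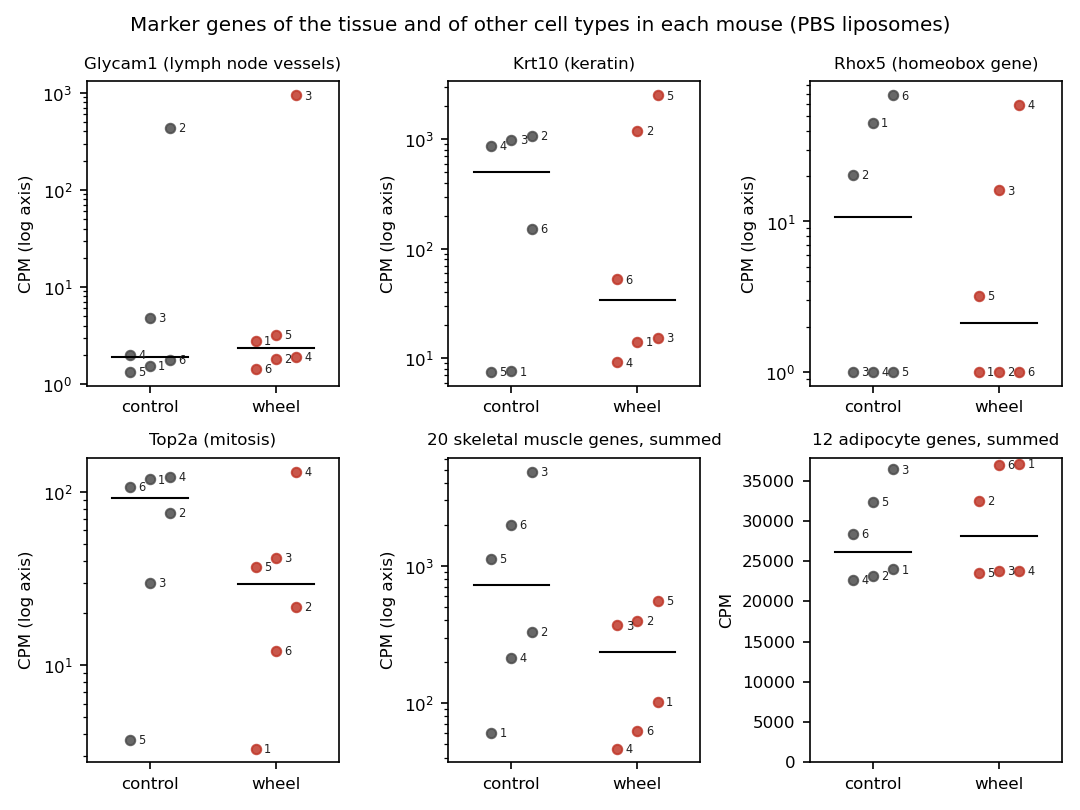
Level of 4 genes and 2 summed gene lists in each of the 12 mice, in CPM on log axes except for the adipocyte genes; points are mice numbered by replicate and lines are group medians. Glycam1 is high in control replicate 2 and wheel replicate 3, Krt10 and Rhox5 split both groups, and the adipocyte sum has the narrowest range of the panels.

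Whether wheel running altered expression in this tissue was tested for each gene with limma on log2(CPM + 1), a scale that understates differences of genes near the floor. No gene passed an adjusted p of 0.05 among the 13745 tested, on the deposited or the upper-quartile scaling, so that 0% were called. The smallest adjusted p was 0.933 on the deposited scaling and 0.9999 on the other. Tests on counts were not run, because the floor removes the reads of low genes. At an unadjusted p under 0.05 there were 723 genes, of which 112 were higher (0.815% of genes tested) and 611 lower (4.45%) with the wheel. The median log2 change was -0.095 and 65.0% of the genes had a negative value. On the upper-quartile scaling the same threshold gave 230 higher (1.67%) and 296 lower genes (2.15%), with a median of -0.017. Genes with the lower value made up 84.5% of those under the threshold on the deposited scaling and 56.3% on the other, so the excess of lower genes depended on the scaling. All 112 higher genes were also under it on the upper-quartile scaling, and so were 296 of the 611 lower ones. An unadjusted limma p under 0.05 is called the unadjusted threshold below. With both lymph node mice left out the counts were 104 higher and 451 lower, again with 0 past the adjusted threshold. Changes over 1 on the log2 scale were estimated for 106 genes, 11 higher and 95 lower, and the median standard error of a gene was 0.27.

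**Figure D3:**
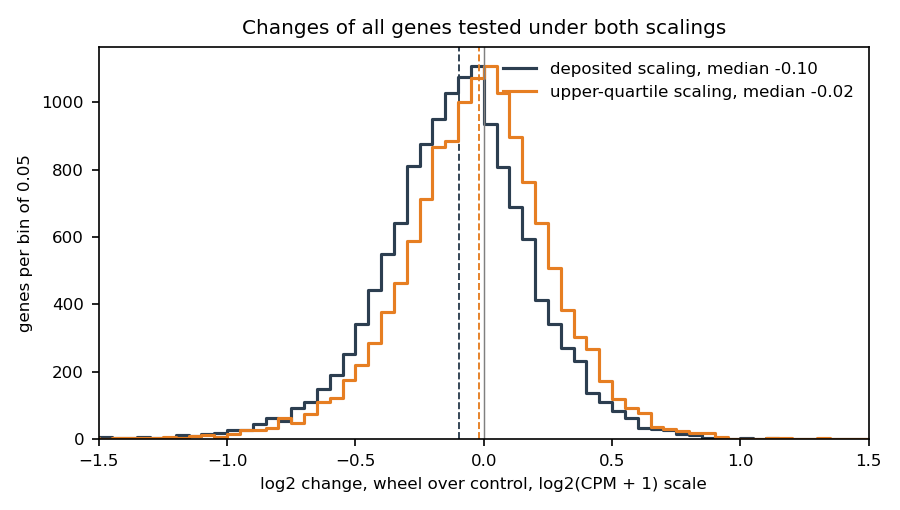
Number of genes in each bin of 0.05 of the log2 change (wheel over control, log2(CPM + 1) scale) for the 13745 genes tested, on the deposited and the upper-quartile scaling. Dashed lines mark the medians of -0.095 and -0.017; the 2 curves have nearly the same shape and are shifted against each other, and changes beyond 1.5 lie outside the axis.

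The 82 genes named for their separation or their p had adjusted p-values between 0.933 and 0.962 on the deposited scaling, and the first genes of the lists had values of up to 0.9975. All were at 0.9999 on the upper-quartile scaling, so the values below describe these mice and none is called. A first set was named because the 6 wheel-running and the 6 control values did not overlap. Such separation was seen for 7 higher (0.0509%) and 33 lower genes (0.24%) on the deposited scaling and for 14 higher (0.102%) and 13 lower (0.0946%) on the upper-quartile scaling, with 7 higher and 13 lower genes shared. The separated genes below had at least 5 CPM on average in either group.

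Among the lower genes, Rraga had the smallest p of those separated on both scalings. It encodes RagA, the GTPase through which amino acids switch on the growth kinase complex mTORC1, and lies on chromosome 4, 86575668 to 86577285 in the GRCm38 build of the GENCODE M21 annotation, as do the positions below. Rraga was read at 70.1 to 93.1 CPM (median 88.0) in control and 48.5 to 62.2 CPM (median 55.3) in wheel-running mice. The lowest control mouse was replicate 5 and the highest wheel-running mouse replicate 2, and a gap remained between them. The log2 change was -0.58 (standard error 0.14), with an unadjusted limma p of 0.000257, and was -0.50 on the upper-quartile scaling. Smad1, the transcription factor that carries bone morphogenetic protein signals (chromosome 8, 79338395 to 79399518), was at 22.99 to 28.2 CPM (median 24.8) in control and 13.2 to 19.2 CPM (median 17.7) in wheel-running mice. Its groups were narrow and apart, with a log2 change of -0.55 (standard error 0.17) and an unadjusted limma p of 0.00333. Ints13, a subunit of the Integrator complex that processes small nuclear RNA (chromosome 6, 146549632 to 146577835), was at 10.5 to 19.9 CPM (median 14.4) in control and 2.05 to 9.23 CPM (median 8.16) in wheel-running mice. Wheel replicates 3 and 5 were the lowest, and without both lymph node mice the log2 change went from -1.09 to -0.90. Prmt7, an arginine methyltransferase gene, gave -1.06 (standard error 0.37), from 5.91 to 14.5 (median 9.18) CPM in control to 2.89 to 5.25 (median 3.83) CPM in wheel-running mice. Polr3e, which encodes a subunit of RNA polymerase III, gave -0.95 (standard error 0.34) and was below 13 CPM in every mouse. Zfc3h1, a factor that sends nuclear RNA to the exosome, was at 33.6 to 39.7 CPM (median 36.0) in control and 22.6 to 30.8 CPM (median 25.6) in wheel-running mice, and its log2 change was -0.45 (standard error 0.16). AU019823 was at 27.3 to 34.8 CPM (median 32.1) in control and 15.9 to 24.2 CPM (median 19.1) in wheel-running mice.

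Fewer genes were separated upward than downward on both scalings at once (7 against 13). On the upper-quartile scaling by itself there were 14 upward and 13 downward. Ccdc92, a coiled-coil protein gene (chromosome 5, 124834418 to 124862424), was at 1.24 to 5.62 CPM (median 3.50) in control and 6.08 to 10.4 CPM (median 7.19) in wheel-running mice. Control replicates 2, 3 and 5 had under 3 CPM and no wheel-running mouse had under 6. Its log2 change was 1.05 (standard error 0.30) with an unadjusted limma p of 0.00208. Ripply3, a transcriptional corepressor gene (chromosome 16, 94328420 to 94336935), was at 2.25 to 3.96 CPM (median 3.18) in control and 4.54 to 8.64 CPM (median 5.87) in wheel-running mice (log2 change 0.79, standard error 0.23). Atraid, named for its induction by retinoic acid, gave 0.35 (standard error 0.16). Dcaf7, which encodes a WD-repeat adaptor protein, gave 0.34 (standard error 0.19), but its mean rested on wheel replicate 5 at 44.5 CPM, and the other wheel-running mice were at 21.7 to 27.3 CPM against a highest control value of 21.5 CPM. Unadjusted limma p-values of Atraid and Dcaf7 were 0.0394 and 0.0906.

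**Figure D4:**
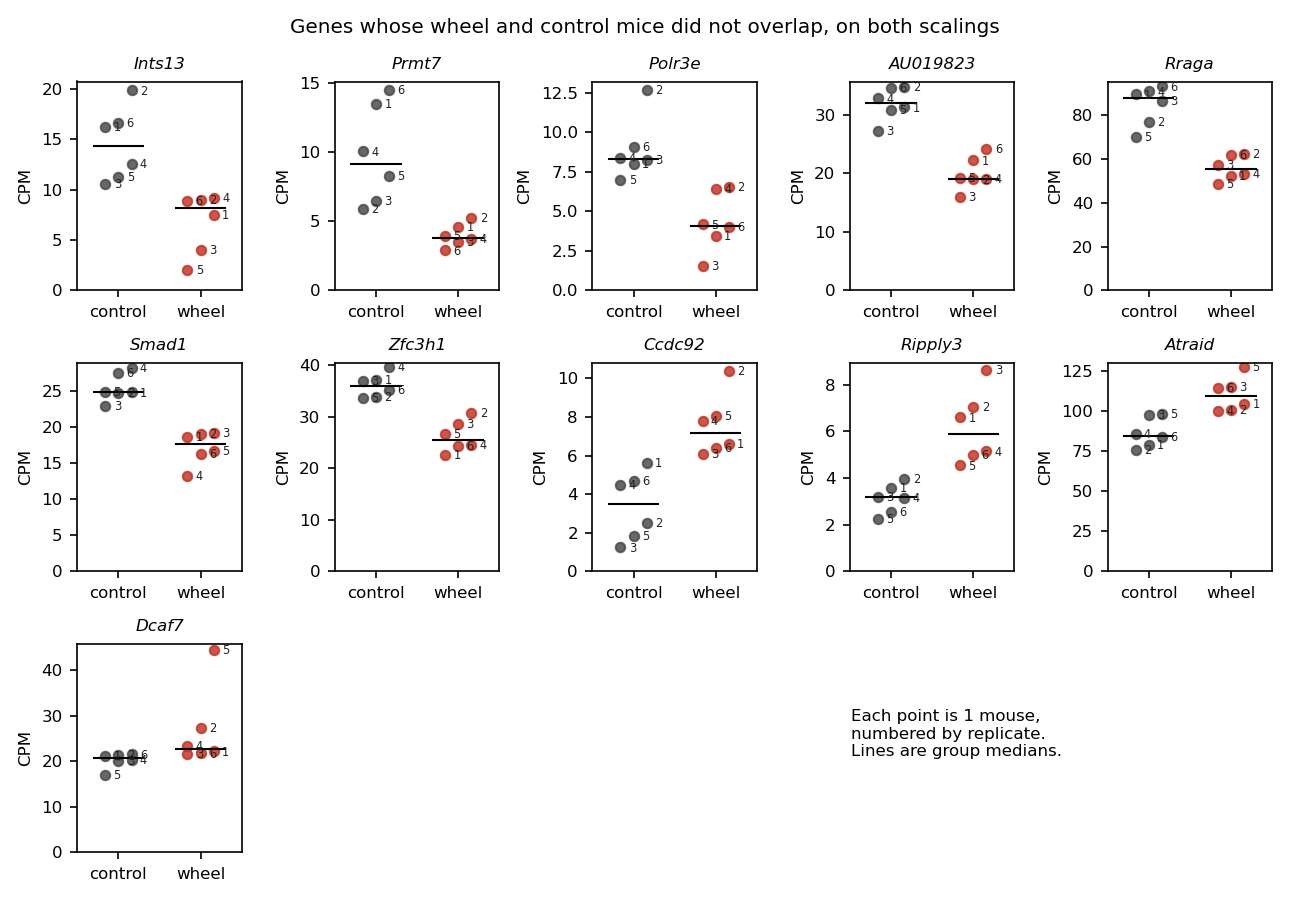
CPM of 11 genes whose wheel-running and control mice did not overlap on both scalings, 7 lower and 4 higher with the wheel; each point is 1 mouse numbered by replicate, each line a group median, and every axis starts at 0. Rraga, Smad1 and Zfc3h1 show narrow groups with a gap, and in Dcaf7 wheel replicate 5 stands above the rest.

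Smallest of all unadjusted p-values was that of Cdkn2b, the gene of the cell cycle inhibitor p15 (chromosome 4, 89306299 to 89311039), which blocks the kinases CDK4 and CDK6. Cdkn2b was read at 3.10 to 8.25 CPM (median 5.15) in control and 1 to 4.06 CPM (median 1.20) in wheel-running mice. Wheel replicates 4 and 5 were at the floor and replicates 1, 2 and 6 just above it, while wheel replicate 3, the mouse with lymph node genes, lay among the controls. The log2 change was -1.33 (standard error 0.28), the unadjusted limma p 7.05e-05 and the adjusted p 0.933. Without wheel replicate 3 the adjusted p was 0.0642, without both lymph node mice 0.169, and with those mice left out on the upper-quartile scaling 0.307. The part of lymph node tissue in this result was not tested. Cdk9, the kinase that releases paused RNA polymerase II, was at 2.81 to 12.2 CPM (median 9.07) in control and 1 to 4.31 CPM (median 3.26) in wheel-running mice (log2 change -1.23, standard error 0.32). Fkbpl, an FK506-binding protein family gene, was at 5.12 to 8.70 CPM (median 6.33) in control and 1.00 to 4.95 CPM (median 2.56) in wheel-running mice, apart on the deposited scaling only. Ywhae, which encodes the adaptor protein 14-3-3 epsilon, was at 249 to 389.9 CPM (median 330.2) in control and 196 to 266 CPM (median 223) in wheel-running mice (log2 change -0.49, standard error 0.13). Ywhae is an abundant gene far from the floor, and its groups overlapped only between the lowest control and the highest wheel-running values.

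Among genes with higher values, Irf4 had the smallest p. Irf4 (chromosome 13, 30749226 to 30766976) is a transcription factor of plasma cells, of alternatively activated macrophages and of adipocytes. It was read at 1 to 10.0 CPM (median 5.60) in control and 4.88 to 25.8 CPM (median 22.7) in wheel-running mice. Wheel replicates 2 to 5 were at 21.0 CPM or more, far above every control mouse, wheel replicate 6 was level with the highest control and wheel replicate 1 lay within the control range. Its log2 change was 1.60 (standard error 0.41), with an unadjusted limma p of 0.000697, or of 0.00162 without both lymph node mice. Irf4 was also counted among plasma cell genes, where 3 of 7 tested had a positive change and Irf4 alone was at the unadjusted threshold. Jchain, the joining chain of secreted antibodies, was at the floor in 8 of 12 mice. Slc7a2, a transporter of arginine and lysine, was at 12.6 to 66.7 CPM (median 31.6) in control and 40.7 to 78.9 CPM (median 64.7) in wheel-running mice (log2 change 1.04, standard error 0.34). Pou6f1, a POU-domain transcription factor gene, was at 1.40 to 5.12 CPM (median 4.15) in control and 3.77 to 14.8 CPM (median 8.77) in wheel-running mice (log2 change 1.08, standard error 0.32). Fos, an immediate early gene of stimulated cells, was at 6.20 to 10.4 CPM (median 8.40) in control and 8.28 to 22.7 CPM (median 15.3) in wheel-running mice (log2 change 0.79, standard error 0.26). All 3 overlapped between groups, with the higher median in wheel-running mice. For Pou6f1 wheel replicate 4, at 3.77 CPM, lay below the control median of 4.15 CPM. For Fos the lowest wheel-running mouse, at 8.28 CPM, lay just below the control median of 8.40 CPM.

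Gene lists of the tissue and of running physiology were then read against those backgrounds. Genes of cell division had mostly negative changes, but few at the threshold. Of 28 mitotic genes 27 had a negative log2 change, with a list median of -0.58 (-0.50 on the upper-quartile scaling), and 2 were lower and 0 higher at the unadjusted threshold, where 4.45% of all genes were lower. On the upper-quartile scaling and without both lymph node mice 1 was lower. Mki67, which marks cycling cells, was at 1 to 50.8 CPM (median 8.57) in control and 4.31 to 10.9 CPM (median 6.09) in wheel-running mice. Control replicate 4 was far above all other mice and control replicate 5 was at the floor, and 22.5% of the 3′ end of Mki67 matched other genes. Aurka, a kinase of the mitotic spindle, was at 2.42 to 21.1 CPM (median 5.10) in control and 1 to 7.85 CPM (median 1.72) in wheel-running mice (log2 change -1.16, standard error 0.46, unadjusted limma p 0.0185). Top2a, the topoisomerase of dividing cells, was at 3.69 to 123 CPM (median 91.7) in control and 3.30 to 131 CPM (median 29.3) in wheel-running mice, and was chosen after its values were seen. It was lowest in control replicate 5 and wheel replicate 1 and highest in control replicates 1, 4 and 6 and wheel replicate 4, so the ranges were nearly the same while the medians differed. Of 28 genes of DNA replication and nucleotide synthesis 26 had a negative change (median -0.42, 4 lower and 0 higher at the unadjusted threshold, and 2 lower without both lymph node mice), among them Dut, the dUTPase gene, at -0.61, Gins2 of the replicative helicase at -0.62 and Rpa2 of the single-strand binding complex at -0.57.

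Tubulins had the highest share of lower members at the unadjusted threshold of all lists. All 11 tubulin genes tested had a negative change, from -1.17 to -0.052, with a median of -0.51, and 4 were at that threshold, against 4.45% of all genes in that direction. On the upper-quartile scaling 10 of 11 were negative with 3 at the threshold, and without both lymph node mice there were 3. Tuba1a, an alpha-tubulin gene of neurons and of dividing and migrating cells (chromosome 15, 98949837 to 98953703), was read at 119 to 310.3 CPM (median 150.1) in control and 48.9 to 129 CPM (median 61.4) in wheel-running mice. Wheel replicates 2 to 5 were at 48.9 to 65.3 CPM, well under every control mouse, and wheel replicates 1 and 6 reached the lowest controls. Its log2 change was -1.17 (standard error 0.29) and its unadjusted limma p 0.000509. Tubb2a, a beta-tubulin gene, was at 9.56 to 39.3 CPM (median 25.8) in control and 4.36 to 23.4 CPM (median 9.51) in wheel-running mice (log2 change -1.14, standard error 0.40). Tuba1b was at 135 to 300.4 CPM (median 251) in control and 118 to 187 CPM (median 164) in wheel-running mice (log2 change -0.51, standard error 0.18). The 3′ ends of Tuba1a, Tuba1b and Tubb2a matched other genes over 50.8%, 60.8% and 51.8% of their length, so reads of the family can be split or lost.

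Genes of protein synthesis, folding and breakdown also had mostly negative values. On the deposited scaling the list medians lay between -0.28 and -0.10, against -0.095 over all genes. Counts of lower members in this paragraph stand against 4.45% of all genes on the deposited and 2.15% on the upper-quartile scaling. Of 83 cytosolic ribosomal protein genes 81 had a negative change with a median of -0.20, and 8 were lower at the unadjusted threshold. On the upper-quartile scaling 67 were negative, the median was -0.11 and 4 were lower. Rpl4, of the large ribosomal subunit, was at 314 to 431 CPM (median 390.4) in control and 244 to 344 CPM (median 274) in wheel-running mice (log2 change -0.41, standard error 0.15). Many ribosomal genes have near-identical pseudogenes, and 91.8% of the 3′ end of Rps27a matched other genes. Of 75 mitochondrial ribosomal protein genes 7 were lower and 0 higher (median -0.14), and on the upper-quartile scaling 3 were lower and 1 higher (median -0.054). Mrps7, of the small mitochondrial subunit, was at 29.0 to 48.5 CPM (median 36.8) in control and 19.7 to 39.2 CPM (median 21.7) in wheel-running mice (log2 change -0.62, standard error 0.18). Of 31 proteasome genes 7 were lower and 0 higher (median -0.19), a count that was 1 on the upper-quartile scaling. Psmc3, an ATPase subunit of the proteasome cap, was at 111 to 144 CPM (median 117) in control and 85.7 to 111 CPM (median 96.9) in wheel-running mice and separated on the deposited scaling only, by 111 against 111 CPM at the edges. All 14 heat shock genes had a negative change (median -0.28), and 3 were lower at the threshold, or 1 on the upper-quartile scaling. Cryab, a small heat shock protein gene that muscle and myoepithelium also express, was at 59.8 to 153 CPM (median 80.6) in control and 22.9 to 70.8 CPM (median 37.5) in wheel-running mice (log2 change -1.07, standard error 0.46). Of 22 genes of the unfolded protein and integrated stress responses 3 were lower, including Phgdh, the first enzyme of serine synthesis, at -1.03 (standard error 0.43), and 0 without both lymph node mice. There were 1 lower and 1 higher on the upper-quartile scaling. For Phgdh, 98.25% of the 3′ end matched other genes.

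Luminal epithelial genes had the highest list median, 0.29 on the deposited and 0.37 on the upper-quartile scaling. Of 18 tested, 13 had a positive change and 3 were higher at the unadjusted threshold, against 0.815% of all genes in that direction. Pgr, the progesterone receptor gene, was read at 5.97 to 28.7 CPM (median 14.9) in control and 9.99 to 78.0 CPM (median 39.0) in wheel-running mice, with a log2 change of 1.17 (standard error 0.50) and an unadjusted limma p of 0.0285. Ltf, the gene of lactoferrin, a secreted iron-binding protein of milk and of neutrophil granules, was at 7.86 to 94.9 CPM (median 26.7) in control and 43.6 to 94.4 CPM (median 73.8) in wheel-running mice (log2 change 1.10, standard error 0.44). Control replicates 1 and 5 were as high as the wheel-running mice, and the other 4 controls were below all of them. Kit, a receptor of luminal progenitors and of mast cells, was at 5.11 to 32.3 CPM (median 14.7) in control and 16.2 to 34.8 CPM (median 25.6) in wheel-running mice (log2 change 0.75, standard error 0.36). Esr1, the estrogen receptor gene, was at 39.0 to 69.7 CPM (median 50.6) in control and 43.7 to 70.2 CPM (median 63.9) in wheel-running mice. Btn1a1, butyrophilin of the milk fat globule, was at 2.25 to 16.1 CPM (median 3.57) in control and 8.50 to 18.8 CPM (median 12.5) in wheel-running mice (log2 change 1.12, standard error 0.52), whereas Csn1s1, a casein gene, was at the floor in all 12. Xdh, xanthine dehydrogenase of the same globules, was at 77.0 to 101 CPM (median 82.3) in control and 36.4 to 93.5 CPM (median 68.6) in wheel-running mice (log2 change -0.49, standard error 0.20), so the 2 milk genes at the threshold lay on opposite sides. Xdh was not at it on the upper-quartile scaling, and neither gene was without both lymph node mice. Without both lymph node mice the luminal median was 0.41, with 2 genes at the threshold. Basal epithelial genes had a median of -0.38, or -0.18 without both lymph node mice, with 0 of 12 at the threshold in either direction, and Krt5 among them was high where Krt10 was.

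Among 12 adipocyte genes only Lep, the leptin gene, was at the unadjusted threshold, where 4.45% of all genes were lower and 0.815% higher. Lep, whose hormone reports fat stores (chromosome 6, 29060220 to 29073877), was read at 99.1 to 353 CPM (median 186) in control and 35.1 to 297 CPM (median 72.1) in wheel-running mice. Wheel replicates 2 to 5 were at 35.1 to 78.0 CPM, under every control mouse, while wheel replicate 1 lay among the 3 higher controls and wheel replicate 6 below these. The log2 change was -0.90 (standard error 0.42), with an unadjusted limma p of 0.0445, which was 0.0655 on the upper-quartile scaling and 0.0587 without both lymph node mice. The summed adipocyte genes were highest in the same mice, with 36972 and 37078 CPM in wheel replicates 6 and 1 against 23481 to 32434 CPM in the other wheel-running mice, and 28350.2 to 36386 CPM in the 3 higher controls against 22697 to 23971 CPM in the other controls. Their part in the Lep values was not tested. Of the 12 adipocyte genes 6 had a positive change, and their median was 0.0044. Acacb, the acetyl-CoA carboxylase that makes the malonyl-CoA which restrains fatty acid oxidation, was at 22.5 to 62.6 CPM (median 42.5) in control and 53.2 to 85.6 CPM (median 74.7) in wheel-running mice (log2 change 0.73, standard error 0.27). It was the single member at the threshold among 14 genes of fatty acid synthesis, and Fasn, fatty acid synthase, was at 2368 to 4980 CPM (median 2828) in control and 2500 to 4377 CPM (median 4092) in wheel-running mice. Slc27a1, a fatty acid transporter gene, was at 59.4 to 127 CPM (median 101) in control and 107 to 168 CPM (median 125) in wheel-running mice (log2 change 0.47, standard error 0.22). Of 18 fatty acid oxidation genes 14 had a positive change on the deposited and 18 on the upper-quartile scaling, with medians of 0.078 and 0.17. Counts of higher members at the threshold were 0 and 2, against 0.815% and 1.67% of all genes. Those 2 were Ppara, the receptor that drives the pathway, at 0.68 on the upper-quartile scaling, and Cpt1a, the carnitine transferase that admits fatty acids to mitochondria, at 0.41, and neither was at the threshold once both lymph node mice were also left out. Pnpla2, the lipase that opens triglyceride breakdown, was at 734 to 1078 CPM (median 875) in control and 704 to 1456 CPM (median 986) in wheel-running mice. Ucp1, the uncoupling protein of brown and beige fat, was at the floor in 9 of 12 mice and no higher than 8.16 CPM. Nuclear genes of oxidative phosphorylation had 56 of 70 negative changes on the deposited and 38 of 70 on the upper-quartile scaling, with 2 lower and then 0 lower and 1 higher.

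Most immune lists had few members at the unadjusted threshold, where 0.815% of all genes were higher and 4.45% lower on the deposited scaling. On the upper-quartile scaling 1.67% were higher and 2.15% lower. Of 18 macrophage and monocyte genes 0 were at the threshold in either direction and 10 had a positive change (median 0.061). Adgre1, the macrophage marker F4/80, was at 5.06 to 14.9 CPM (median 8.00) in control and 4.28 to 20.1 CPM (median 10.3) in wheel-running mice, and C1qa, of the first complement component, at 51.8 to 99.2 CPM (median 73.6) and 56.3 to 94.1 CPM (median 71.8). The lists of perivascular macrophages (11 genes), alternative activation (11) and monocyte and eosinophil chemokines (13) likewise had 0 members at the threshold on the deposited scaling. Il1rl1, the receptor of interleukin 33, was the single member at the threshold on the upper-quartile scaling, at 0.64. Of 7 mast cell genes 2 were higher, Kit and Tpsb2, a mast cell tryptase, against 0.815% of all genes in that direction. Without both lymph node mice 1 was higher and 1 lower, and the list median went from 0.089 to -0.043. Tpsb2 was at 9.43 to 24.7 CPM (median 21.9) in control and 23.3 to 36.7 CPM (median 30.2) in wheel-running mice (log2 change 0.65, standard error 0.25), and Cpa3, mast cell carboxypeptidase, was at 7.37 to 17.9 CPM (median 11.3) and 11.1 to 26.1 CPM (median 18.2), for a log2 change of 0.55. Wheel-running mice overlapped only the upper control mice for Tpsb2. Of 4 neutrophil and CXC chemokine genes tested 1 was higher and 1 lower at the threshold on both scalings, and 1 higher and 0 lower without both lymph node mice. The higher one was Ltf, which luminal cells also express. The lower one, S100a8, a neutrophil calcium-binding protein, was near the floor, at 1 to 5.36 CPM (median 3.50) in control and 1 to 2.08 CPM (median 1) in wheel-running mice. Ncr1, a natural killer cell receptor, was at the floor in 10 of 12 mice. Isg15, an interferon-induced ubiquitin-like modifier, was at 3.73 to 54.0 CPM (median 24.98) in control and 5.02 to 96.8 CPM (median 14.1) in wheel-running mice. Of 28 interferon-stimulated genes 0 were at the threshold, and wheel replicate 4 had the highest Isg15.

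Genes of vessels and of the hypoxia pathway had few members at the unadjusted threshold, where 0.815% of all genes were higher and 4.45% lower on the deposited scaling. On the upper-quartile scaling 1.67% were higher and 2.15% lower. Of 18 endothelial genes 9 had a positive and 9 a negative change, and Pecam1, an adhesion molecule of endothelium, was at 44.8 to 69.5 CPM (median 52.6) in control and 35.8 to 80.0 CPM (median 63.2) in wheel-running mice. On the upper-quartile scaling 2 endothelial genes were higher at the threshold, Plvap of vessel diaphragms at 0.42 and Vwf, von Willebrand factor, at 0.60, and neither was once both lymph node mice were also left out. Hif1a, the oxygen-regulated transcription factor, was at 35.0 to 52.3 CPM (median 45.0) in control and 33.8 to 64.3 CPM (median 44.3) in wheel-running mice, and Vegfa, its angiogenic target, at 37.5 to 57.4 CPM (median 48.9) and 43.3 to 75.3 CPM (median 51.4). Of 24 genes of the HIF pathway and its direct targets 0 were at the threshold, and their median was -0.056 on the deposited and 0.026 on the upper-quartile scaling. Among 20 glycolytic genes Hk2, hexokinase 2, was lower, at 89.6 to 156 CPM (median 129) in control and 67.5 to 114 CPM (median 99.8) in wheel-running mice (log2 change -0.44, standard error 0.20), and Pgam1, phosphoglycerate mutase, was higher but near the floor, with 3 control mice at it. Hk2 was not at the threshold on the upper-quartile scaling. Vegfc, the lymphatic growth factor, was the single one of 21 angiogenic ligands and receptors at it (log2 change -0.66, standard error 0.29), near the floor, with 1 control and 4 wheel-running mice there.

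Adamts1, a secreted protease that cleaves proteoglycans, was read at 18.9 to 38.2 CPM (median 29.1) in control and 9.09 to 25.3 CPM (median 16.7) in wheel-running mice (log2 change -0.75, standard error 0.25). Adamts5, of the same family, was at 53.2 to 153 CPM (median 90.9) in control and 32.3 to 93.9 CPM (median 43.2) in wheel-running mice, and Timp4, a metalloproteinase inhibitor, at 37.8 to 105 CPM (median 68.5) and 11.4 to 78.0 CPM (median 35.9). All 3 overlapped between groups. They were the 3 lower members at the unadjusted threshold among 15 metalloproteinase and inhibitor genes, against 4.45% of all genes, and 6 of the 15 had a positive change. On the upper-quartile scaling 2 were lower, against 2.15% of all genes. Of 20 collagen genes 0 were at the threshold, with Col1a1, of the major fibrillar collagen, at 194 to 955 CPM (median 367) in control and 215 to 482 CPM (median 463) in wheel-running mice. Klf6, a transcription factor of injured tissue, was at 109 to 151 CPM (median 122) in control and 74.8 to 104 CPM (median 91.9) in wheel-running mice (log2 change -0.45, standard error 0.14), apart on the deposited scaling only. It and Nr4a2 (log2 change -0.74) were the lower members of 24 immediate early genes, and Fos was the higher one.

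Antigen presentation and hormone response lists had medians above that of all genes. On the upper-quartile scaling 1.67% of all genes were higher at the threshold. Of 18 genes of MHC class I and the immunoproteasome 14 had a positive change (median 0.15), and of 9 MHC class II genes 7 (median 0.15), with 0 at the threshold in both. H2-Aa, an MHC class II chain, was at 88.9 to 394 CPM (median 171) in control and 118 to 442 CPM (median 176) in wheel-running mice, with wheel replicate 3 at the upper end. Glucocorticoid-responsive genes had a median of 0.18 with 9 of 17 positive, and Lcn2, lipocalin 2, and Sgk1, a kinase that steroid hormones induce, were higher at the threshold on the upper-quartile scaling only (0.82 and 0.52), and not with both lymph node mice left out as well. Of 18 circadian clock genes 9 were positive, and Hlf, a clock-controlled transcription factor gene, was at the threshold on the upper-quartile scaling only (0.46). Arntl, the clock gene of BMAL1, was at 1.52 to 7.62 CPM (median 2.94) in control and 1 to 3.30 CPM (median 1.70) in wheel-running mice.

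Metabolic and defense lists held few lower members at the threshold, where 4.45% of all genes were lower on the deposited and 2.15% on the upper-quartile scaling. Blvra, biliverdin reductase, was at 14.6 to 23.3 CPM (median 18.6) in control and 6.52 to 17.3 CPM (median 12.4) in wheel-running mice (log2 change -0.63, standard error 0.23), the single one of 14 genes of iron and heme handling at the threshold. Of 24 antioxidant genes 2 were lower, Prdx6, a peroxiredoxin, at -0.42 and Ucp2, a mitochondrial carrier, at -0.48, and on the upper-quartile scaling 1 was lower and 1 higher. Pik3r1, the regulatory subunit of PI3 kinase, was lower among 15 genes of insulin and IGF signaling (-0.48), and Tnc, tenascin C of wound matrix, at 1.84 to 16.3 CPM (median 7.74) in control and 1.35 to 5.22 CPM (median 3.26) in wheel-running mice, among 20 of wound matrix and TGF beta response. Pik3r1 and Tnc were not at the threshold on the upper-quartile scaling. Prf1, perforin of cytotoxic cells, was at 1 to 4.45 CPM (median 1.98) in control and 1 to 1.20 CPM (median 1) in wheel-running mice, near the floor, and was the single one of 8 natural killer and cytotoxic genes at the threshold, with 0 without both lymph node mice. Of 18 genes of cholesterol synthesis and uptake 15 had a negative change (median -0.21) and 0 were at the threshold. The lists of fibroblasts and adipose progenitors (20 genes), lysosome (19), complement (17), citric acid cycle (17), smooth muscle and pericytes (16), lipid droplets and lipolysis (14), thermogenesis (11), T cells (9), mitochondrially encoded genes (8), lymphatic vessels (8), lymph node genes (5) and B cells (4) had 0 members at the threshold on the deposited scaling.

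The most negative list median, -1.74, belonged to skeletal muscle. All 20 muscle genes had a negative change and 0 were at the threshold. Their sum was 60.8 to 4844 CPM (median 729) in control and 46.5 to 558 CPM (median 235) in wheel-running mice. Acta1, the actin of muscle fibers, was read at 7.23 to 836 CPM (median 129.7) in control and 5.46 to 127 CPM (median 54.1) in wheel-running mice. Control replicates 3, 5 and 6 were above every wheel-running mouse, and control replicate 1 was near the lowest of them. Without both lymph node mice the muscle median was -2.20. All 5 hemoglobin and red cell genes were negative (median -0.25, or -0.039 without both lymph node mice) with 0 at the threshold, and Hba-a1, an alpha-globin gene, at 358 to 784 CPM (median 535) in control and 250.3 to 712 CPM (median 414) in wheel-running mice. The 3′ end of Hba-a1 matched Hba-a2 over 100% of its length. How far muscle, skin, lymph node and proliferating cells in a sample entered the values of other genes was not tested gene by gene. With the levels of lymph node genes, Krt10 and Rhox5 of each mouse as covariates, 0 genes passed the adjusted threshold and 182 were higher and 818 lower at the unadjusted one. That fit was run on the deposited scaling only, on which lower genes were in excess without covariates too. It held no covariate for muscle or for dividing cells.

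**Figure D5:**
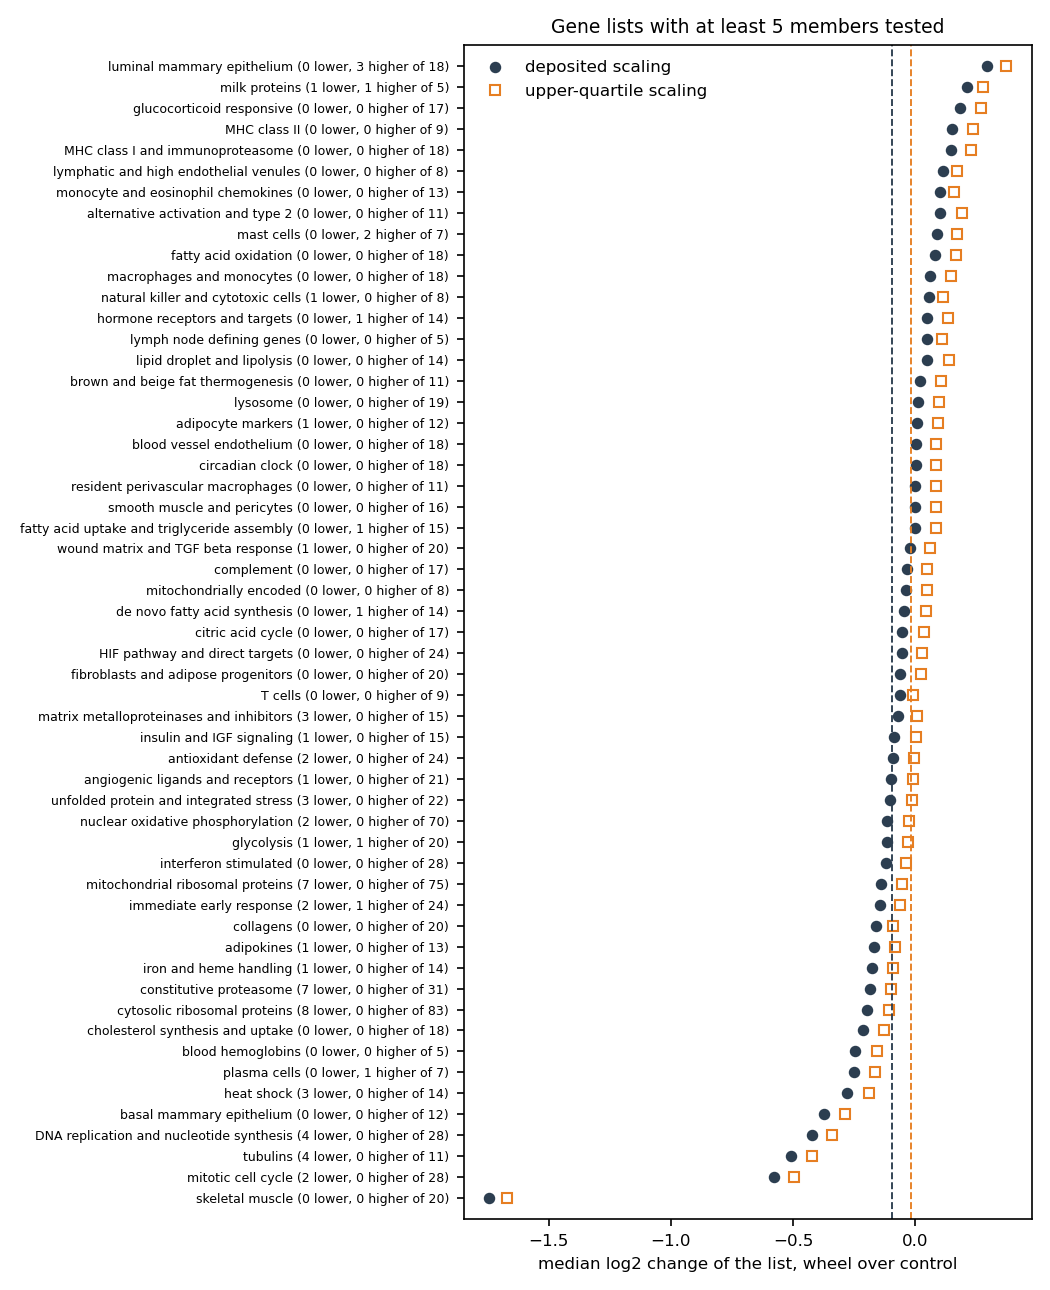
Median log2 change (wheel over control, log2(CPM + 1) scale) of each gene list with at least 5 members tested, on the deposited scaling (filled circles) and the upper-quartile scaling (open squares); labels give members lower and higher at an unadjusted limma p under 0.05 on the deposited scaling, and dashed lines the medians of all genes tested. Skeletal muscle lies lowest, then mitotic genes and tubulins, and luminal epithelium highest, and the 2 scalings differ by a near-constant shift.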

How the data were processed

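QuantSeq 3′ FWD libraries were made from one engrafted mammary gland per mouse, and the labels gave the group of each. The authors deposited 1 table per mouse with a signal in CPM for each gene, scaled to all reads of the library, unassigned ones included (35.5 to 41.7% of reads), with values under 1 raised to 1. Because that scaling fixes the total, a few abundant genes that take more reads lower all others, and the floor hides differences below it. The submitters' processing notes name STAR 2.5.3a and GRCm38. The values above the floor were whole multiples of 1 read (within 0.1 read, checked below 300.0 CPM), which gave the depths of 13314092 to 17947621 reads. For a symbol listed more than once (106 symbols) only the entry with the highest mean over the 22 mice was kept. The 4 entries that name no gene were left out.

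Genes above 1 CPM in at least 5 of the 12 mice (13745) were fitted in limma 3.58.1 (R 4.3.3) on log2(CPM + 1) with a variance trend and a mean for each of the 4 groups of all 22 mice, and p-values were adjusted by Benjamini-Hochberg over all genes tested. The spread of the 10 clodronate mice entered only the variance. Upper-quartile scaling was run beside it, also without both lymph node mice, but not in the fit with covariates or with single mice left out. Library measures were compared by exact permutation. The fit was tested on simulated data. Python 3.11.15, numpy 2.4.6, pandas 2.3.3 and matplotlib 3.10.9 were used for the rest. Positions come from GENCODE M21, which held 94.5% of 52526 symbols. The last 400 bases of a gene were compared with other genes at 97% identity over at least 50 bases to find shared 3′ ends.

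Genes named were the genes without overlap between the groups on both scalings (up to 8 in each direction), the 5 with the smallest p in each direction on either scaling, both with a mean of at least 5 CPM in a group, up to 3 members of each of 57 lists with an unadjusted p under 0.05, and the first gene of each list. Symbols of predicted genes were left out of the first 2 kinds. Some genes that the rule named are not reported here. The genes, lists and alternatives were chosen with earlier results of these data known. Alternatives were other scalings, pseudocounts, filters, mice and a replicate block. Numbers 1 to 6 were shared by different mice of both groups and were not taken to pair them. Leaving out both lymph node mice under upper-quartile scaling, and the fit with lymph node genes, Krt10 and Rhox5 as covariates, were added after the data were seen.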

Additional observations from a re-analysis of the deposited data

Results flagged for a closer look

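A sample was set apart where its gap to the nearest mouse of its group of 6, divided by the range of the group, was over Dixon's critical value for groups of that size. This was so in 16 of 166 groups of values examined, and chance alone gives about 1 in 20. List scores below are means of log2(CPM + 1) over the members tested.

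Wheel replicate 3 and control replicate 2, the mice with lymph node genes, stood highest in their groups for the T cell score (4.34 and 4.37, the next mice at 1.60 and 1.69), the B cell and follicle score (6.30 and 5.97, the next at 3.07 and 3.03) and the lymph node score over the 5 members tested (6.04 and 5.72, the next at 1.66 and 1.77). Wheel replicate 3 was also highest for lymphatic and high endothelial venule genes (4.43, the next at 3.25) and MHC class II genes (6.46, the next at 5.26), lowest for luminal epithelium (4.83, the next at 5.49) and highest for Cdkn2b on the log2(CPM + 1) scale (2.34, the next at 1.29).

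Wheel replicate 4 was highest for interferon-stimulated genes (5.12, the next at 3.54) and for genes of the HIF pathway and its direct targets (4.96, the next at 4.63). Control replicate 5 was lowest for heat shock genes (5.34, the next at 5.66) and for Dcaf7 (4.17, the next at 4.40), and had the highest share of signal in the 10 most abundant genes (30.1%, the next at 24.8%). Wheel replicate 5 was highest for Dcaf7 (5.51, the next at 4.82).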

How the results depend on the processing

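In every alternative run, 0 genes passed the adjusted threshold, and the smallest adjusted p was 0.0642, for Cdkn2b without wheel replicate 3. The 82 genes named for their separation or p kept their direction in each alternative, and the log2 differences of the 44 first genes of lists moved by less than the spread between mice. At the unadjusted threshold, upper-quartile scaling gave 230 higher and 296 lower genes with a median log2 change of -0.017, and median-ratio scaling gave 253 and 289 with -0.012. Upper-quartile scaling without both lymph node mice gave 192 and 220 with -0.0057. The filter on a mean of 5 CPM left fewer genes to test (10022) and gave 68 higher, and the fit with covariates gave 182 higher, the cause of which was not tested. Leaving out 1 mouse at a time gave 92 to 146 higher and 462 to 776 lower genes, with medians of -0.11 to -0.082.

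With the replicate number as a block the counts were 119 higher and 590 lower. The differences in upper quartile (-1.87 CPM) and median CPM (-0.94) had an exact permutation p, adjusted, of 0.0938 in the paired test, which with 6 pairs cannot go below 0.0312 before adjustment. Same-numbered mice correlated at -0.27 to 0.11 in their deviations from group means, and 0 of 6 wheel-running mice correlated best with their own number, so the numbers were not taken to pair the mice. Without 1 mouse the differences ranged from -2.25 to -1.54 CPM for the upper quartile, -1.12 to -0.80 CPM for the median gene, 2.53 to 3.91 percentage points for the 10 most abundant genes and -519 to -299 for genes above the floor. Among 57 list medians, 2 moved by more than the spread between mice with genes above 1 CPM in all 12 mice, mast cells (to 0.55) and neutrophils (to 1.10), where fewer members were tested. Differences of genes under about 3 CPM are limited by the floor of at most 13 to 17 reads.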

Other observations

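The second axis of spread among the 12 mice (15.7% of the variance of log2 values) had lymph node and dividing-cell genes at one end and adipose genes at the other, and the genes given here were chosen after their values were seen. Npr3, the clearance receptor for natriuretic peptides, was read at 30.6 to 261 CPM (median 123) in control and 11.3 to 185 CPM (median 25.4) in wheel-running mice. Sncg, the gene of gamma-synuclein, which white fat expresses, was at 82.5 to 362 CPM (median 224) in control and 59.1 to 383 CPM (median 77.0) in wheel-running mice. Agt, the gene of angiotensinogen, was at 1.71 to 75.6 CPM (median 19.5) in control and 1.13 to 48.9 CPM (median 9.42) in wheel-running mice.

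The wheel-running mice did not lie together for these genes. For Npr3, wheel replicates 1 and 6 were at 185 and 128 CPM, within the control range, and wheel replicates 2 to 5 were at 11.3 to 25.5 CPM, below every control mouse. For Lep, the same replicates 1 and 6 were at 297 and 211 CPM and replicates 2 to 5 at 35.1 to 78.0 CPM. Timp4, Adamts5, Cryab and Tuba1a were likewise higher in wheel replicates 1 and 6 than in the other 4, while Irf4 was lower in them. The summed adipocyte genes were also highest in wheel replicates 1 and 6, at 37078 and 36972 CPM against 23481 to 32434 CPM in the other 4, and the part of this in the values above was not tested. Running distance of each mouse was not analysed here, the split of the 6 mice was seen in these values, and no test was made of it.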
